A study of Mus musculus with 188 samples.

Results

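The genes described here are 35 members of the transcript programme of G2 and mitosis, chosen by name with earlier results of these data known. Each of the 35 symbols was matched to 1 row of a read count table with 49585 gene rows, and all 35 were examined in single mouse cells, 94 on each of 2 plates. The cells came from tail epidermis of Lrig1-CreERT2/RosaYFP mice at postnatal day 20 and had been sorted as Cd34-/Itga6+/YFP-, a gate for basal cells of the interfollicular epidermis. In this strain Cre recombinase is driven from Lrig1, a gene of the upper hair follicle, and marks cells with yellow fluorescent protein, so marked cells were left out by the gate. The labels name no animal and no induction of the Cre. Smart-seq2, which reads polyadenylated transcripts over their whole length, was run on each cell separately. All cells form 1 group and are no replicates of a condition, so spreads over cells are given without p-values or standard errors.

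Depth ran from 79868 to 1093805 gene reads per cell (median 369991), and 5821 to 8720 genes were detected. Levels are given in CPM, counts scaled to the same total of gene reads in every cell with spike-ins left out, which compares cells and not genes of different length. Some reads of a well came from other wells. In 6 genes with at least 70% of their reads in 1 well, each other well of that lettered row, on either plate, held 25.5 reads per 10000 reads of the source. Wells of the same column and plate held 9.96, and all others 0.238. These stray reads were expected to make up 2.33% to 40.9% of a cell's reads, with a median of 7.36%. Of all reads of the members 6.81% were expected to be stray. Itga6, the integrin of the gate, had a median of 458 CPM in the cells richest in members and 572 CPM in the rest. Summed markers of T cells, Langerhans cells, melanocytes, Merkel cells, fibroblasts and endothelial cells had medians of 0 to 11.5 CPM in both sets of cells. Single cells held more, up to 225 CPM in the cells richest in members (Langerhans cell markers) and 598 CPM in the rest (melanocyte markers). The part of such reads in the results was not tested. No read in any cell was found for 3 of 5 T cell, 2 of 5 Merkel cell and 2 of 4 endothelial cell markers. The same held for 1 of 5 Langerhans cell, 1 of 5 fibroblast and 0 of 5 melanocyte markers. Cd3e, Ptprc, Cd207, Krt20, Pdgfra and Cdh5 were among these, and the remaining markers of every list had reads. Summed hair follicle bulge markers had medians of 189.8 CPM in set cells, defined below, and 100.05 CPM in the rest, with no read of Cd34 in any cell, and their part in the results was not tested.

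A cell that has copied its DNA passes through G2 and divides in mitosis. The cyclins A and B and their kinase Cdk1 drive entry, the centromere and kinetochore hold chromosomes to the spindle, and the ubiquitin ligase known as the anaphase promoting complex ends mitosis by destroying cyclin B and securin. In the epidermis this takes place in the basal layer, and cells that leave it switch from the keratins Krt5 and Krt14 to Krt1 and Krt10. Transcripts of this programme build up late in the cycle, and their promoters are known for a shared pair of elements. These are the CCAAT box and the cell cycle genes homology region, whose core is TTTGAA.

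The promoters of Cdc20, Cdk1, Kif11 and Top2a are shown because they carry both elements just before the start, and because the results below on order turn on Cdc20, Cdk1 and Top2a. Each run holds the 130 bases before the RefSeq start on the gene's own strand, build GRCm38.p6, with CCAAT or ATTGG and TTTGAA or TTCAAA in capitals. The windows are chr4:118437344-118437473 on the minus strand for Cdc20, chr10:69352913-69353042 on the minus strand for Cdk1, chr19:37376252-37376381 on the plus strand for Kif11 and chr11:99024190-99024319 on the minus strand for Top2a.
Cdc20: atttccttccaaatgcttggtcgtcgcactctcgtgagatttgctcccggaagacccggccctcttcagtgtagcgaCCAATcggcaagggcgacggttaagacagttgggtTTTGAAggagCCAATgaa
Cdk1: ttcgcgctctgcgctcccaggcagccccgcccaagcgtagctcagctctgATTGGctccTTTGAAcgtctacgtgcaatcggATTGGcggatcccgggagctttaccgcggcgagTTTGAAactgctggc
Kif11: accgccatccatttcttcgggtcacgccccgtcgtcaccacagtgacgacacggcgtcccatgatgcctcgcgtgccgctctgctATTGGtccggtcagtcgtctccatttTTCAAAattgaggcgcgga
Top2a: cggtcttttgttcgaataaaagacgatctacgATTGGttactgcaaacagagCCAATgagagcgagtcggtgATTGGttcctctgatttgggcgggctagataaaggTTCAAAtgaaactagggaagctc

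The first base of the homology core nearest the start lay 18 bases before it in Cdc20, 15 in Cdk1, 19 in Kif11 and 23 in Top2a. RefSeq promoters, 250 bases before to 50 after the start, were held for 32 of the 35 members, and those of Tpx2, Ccna2 and Aurkb were not used here. TTTGAA, searched on both strands, stood in 24 of the 32 (75%) and in 17.9% of all 32851 promoters of this length. CCAAT, also on both strands, stood in 24 (75%) against 37.4% of all. Both motifs, whose matches can share at most 1 base, were found in 21 members (65.6%) against 6.95%. Within the 130 bases before the start both were present in 8 members. The share of all promoters was not taken for this shorter window, so nothing is read from that count. A match is a description of letters in the window and not of a bound site.

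In the raw counts a small, separate group of cells carried most of the programme at once. Counting a member as present at 10 CPM or more, 17 cells (9.04% of all cells, exact Clopper-Pearson 95% interval 5.36% to 14.1%) held at least 50% of the members. They are called set cells below, 12 on plate 1 and 5 on plate 2. They held 20 to 34 members, with a median of 28. No cell held 16 to 19, and the fullest of the other cells held 15. The summed CPM of the members ran from 688 to 15728 in the set cells, with a median of 6578, and from 22.6 to 2541 in the other cells, with a median of 296. The set cells thus held 66.9% of the members' summed CPM. They did not stand out in RNA content by spike-ins, with a median of 158.1 gene reads per spike-in read against 161.02, and they were shallower, with a median of 236305 reads against 379668. Over all cells the number of members at 10 CPM had a rho of -0.306 with depth, and the number above 3 times stray reads one of -0.130, and the part of depth in the counts was not tested. Intervals cover counting error only.

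**Figure D1:**
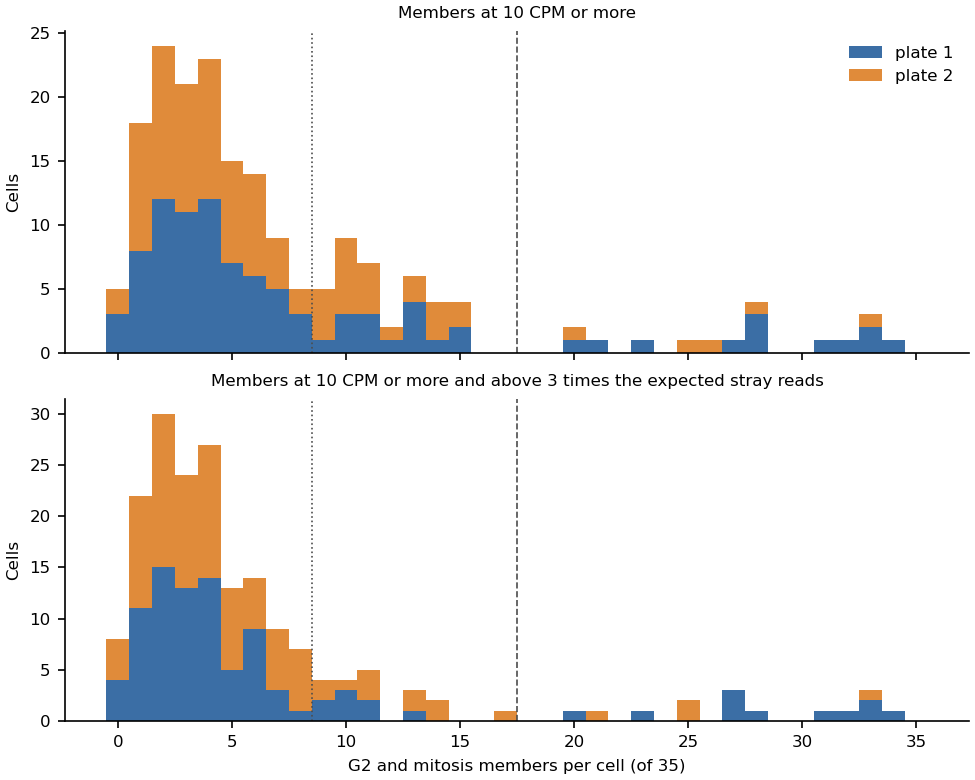
Number of cells (y axis) by how many of the 35 members they held (x axis), stacked by plate. The upper panel counts members at 10 CPM or more and the lower one only members that also exceeded 3 times the expected stray reads. The dotted line marks 25% and the dashed line 50% of the members. In the upper panel the 17 set cells hold 20 to 34 members and stand apart from the rest, which hold at most 15.

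In 1 set cell the members lay close to the level of stray reads. The cell in well B7 of plate 1, picked out after its values were seen, held 21 members at 10 CPM but only 2 above 3 times the stray reads expected from its neighbours. Its members summed to 688 CPM. Of the 17 set cells 15 held at least 50% of the members above that limit, and no other cell did. After subtraction of the expected stray reads 16 of the 17 still did, and the set cells then held 70.1% of the members' CPM. Well B7 then held 16 members and the fullest of the other cells 15, so the gap closed at that cell.

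At the looser limit of 25% of the members the group was larger and less sharply bounded. At least 9 of 35 members were present in 54 cells (28.7%, 22.4% to 35.8%), 27 on each plate. The number fell to 34 cells (18.1%) when only members above 3 times the stray reads were counted. As many as 28 cells lay between 20% and 30% of the members. A partial set of 1 to 8 members was held by 68.6% of cells (61.5% to 75.2%), and 5 cells held none.

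Across all cells the members varied together, and less so without the set cells. Over the 595 pairs the mean Spearman rho of CPM was 0.278 (SD 0.0883 over pairs), from -0.0150 to 0.496. It was 0.343 on plate 1 and 0.211 on plate 2. Without the set cells the mean was 0.140, and 0.0934 after stray reads were also subtracted. The closest pair was Birc5 and Pttg1 (rho 0.496), and the only pair below 0 was Cdc20 and Hjurp. The values of a pair of genes come from the same cells and share library, depth and stray reads, and these correlations are descriptions.

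By role, the set cells held between 60.1% and 74.3% of the members' CPM. The share was lowest for the 8 genes of the centromere, kinetochore and checkpoint and highest for the 4 genes of mitotic exit. Of the 35 members 33 had a mean at least 2-fold higher in set cells than in other cells on both plates, where 2.98% of all 9811 genes with a mean of 5 CPM did, and none was at least 2-fold lower, where 8.16% of genes were. The members themselves define the set cells, so nothing is read from this count. Hjurp and Kif20b were the exceptions.

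The entry genes comprise the kinases Cdk1, Plk1 and Aurka and the cyclins Ccna2, Ccnb1 and Ccnb2. Ccnb2, a B-type cyclin that activates Cdk1, had 5.38, 238 and 1077 CPM as lowest, median and highest value in the set cells. In the other cells its median was 1.88 CPM and its highest value 105.3 CPM. The set cells held 87.2% of its CPM, and a level of 100 CPM was reached by 12 set cells and 1 other cell. Ccnb1, the other B cyclin, reached 100 CPM in 6 set cells and in no other cell. Ccna2, the A-type cyclin that works in S phase and G2, was present at 10 CPM in all 17 set cells, with 21.3, 134.6 and 503 CPM, and in 28 others. Cdk1 was missing at 10 CPM from 6 of the set cells and ran from 0 to 674 CPM in them, with a median of 157.6 CPM. Plk1, a kinase of centrosome maturation and mitotic exit, had 81.1% of its CPM in set cells, and Aurka, a kinase of the spindle poles, 59.3%.

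Mki67 and Top2a act on chromosome structure. Mki67 encodes the Ki-67 protein that coats mitotic chromosomes, and Top2a the topoisomerase that untangles sister DNA. Mki67 was present in all set cells, at 35.4, 567 and 1802 CPM, and in 55 other cells. Above 3 times stray reads it was held by 16 set cells and 33 others. Top2a ranged more widely, from 0 to 2449 CPM with a median of 249.9 CPM in set cells, and 13 set cells and 53 others held it above stray reads. Its set cells overlapped the other cells, whose highest value was 405 CPM. With 58.9% of its CPM in set cells against 76.7% for Mki67, Top2a was the less restricted of the pair.

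Among the centromere and kinetochore genes Hjurp had by far the smallest share of its CPM in set cells. It encodes the chaperone that loads Cenpa, the centromeric form of histone H3, into centromeres. Hjurp (chr1:88262471-88277633, minus strand, GRCm38) had 0, 31.1 and 209 CPM in set cells and a highest value of 504 CPM in the others. Of the 22 cells at 100 CPM or more, 20 were not set cells, and the set cells held only 10.6% of its CPM. It exceeded 3 times stray reads in 64 of the other cells and in 8 set cells. Its rho with the mean score of the remaining members was 0.23, with 0.40 on plate 1 and 0.06 on plate 2, the lowest of all 35 over all cells. Its partner Cenpa showed the opposite picture, with 0, 315 and 1257 CPM in set cells, a median of 2.74 CPM elsewhere and 77.3% of CPM in set cells. Both genes were above stray reads in 10 cells, Cenpa alone in 17 and Hjurp alone in 62.

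Cenpf, a large kinetochore protein, had a larger share of its CPM in set cells than Cenpa, 84.5%, and the other kinetochore members lay between Hjurp and Cenpa. Cenpf reached 100 CPM in 13 set cells and in no other cell. Cenpe, a kinesin that moves chromosomes to the spindle equator, did so in 8 set cells and 2 others. Nuf2 and Ndc80 encode partners in the complex that grips microtubules. Of the cells with Nuf2 above stray reads, 11 also had Ndc80 and 4 did not, while 22 cells had Ndc80 alone. The checkpoint kinase Bub1 and its relative Bub1b were above stray reads in 6 cells together, in 10 with Bub1 alone and in 8 with Bub1b alone.

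The chromosomal passenger complex joins Aurkb, its kinase, to Birc5 (survivin) and Cdca8 (borealin). Birc5 followed the rest most closely, with a rho of 0.68 with the score of the other members, and the set cells held 83.5% of its CPM. It had 0, 274 and 1244 CPM in set cells and at most 136.1 CPM elsewhere. Cdca8 was in all set cells, at 18.4, 308 and 540 CPM, but also reached 409 CPM outside them, and 52.3% of its CPM was in set cells. Aurkb was above stray reads in 11 cells with Birc5 and in 3 without it.

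Spindle genes gave the most and some of the least restricted members. Hmmr, which encodes a microtubule-binding protein of the spindle, had 6.13, 166.7 and 460 CPM in set cells and at most 15.8 CPM in any other cell. The set cells held 92.4% of its CPM, the highest share of the 35. Nusap1, which bundles spindle microtubules, had 87.1% there, and Kif11, the kinesin that pushes the spindle poles apart, 84.3%. Tacc3, which stabilises spindle fibres, had only 41.7%, with 0, 134.01 and 695 CPM in set cells against a highest value of 313 CPM elsewhere. It exceeded stray reads in 40 other cells. Tpx2, which helps microtubules to form near chromosomes, and the mitotic spindle proteins Ckap2 and Ckap2l had 61.5% to 67.8%.

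Genes of cytokinesis split in the same way. Kif23, the motor of the centralspindlin complex at the cell's midzone, had 86.7% of its CPM in set cells and reached no more than 27.3 CPM elsewhere. Racgap1, its partner in that complex, had 56.9% and reached 227 CPM elsewhere. Kif23 was above stray reads in 15 cells with Racgap1 and in 3 without it, while 26 cells had Racgap1 alone. Ect2, which activates the small GTPase that builds the contractile ring, had 66.3%, with 0, 14.1 and 294 CPM in set cells and at most 94.7 CPM elsewhere. Anln, which encodes a scaffold of the contractile ring, was in all set cells at 21.3, 281 and 852 CPM. Kif20b, a kinesin of late cytokinesis, had 46.7%, and on plate 2 its mean in set cells was 1.61 times that of the others, against 9.55 times on plate 1.

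Of the mitotic exit genes, Pttg1 encodes securin, Cdc20 the protein that switches on the anaphase promoting complex, Ube2c the enzyme that hands ubiquitin to that complex, and Cdca3 a trigger of mitotic entry that the complex destroys. Pttg1 was in all set cells, at 16.9, 136.6 and 2680 CPM, and its highest value elsewhere was 505 CPM. Cdc20 had 0, 211 and 1696 CPM in set cells and at most 253 CPM elsewhere. The shares of CPM in set cells were 75.2% for Pttg1, 77.5% for Cdc20, 70.6% for Cdca3 and 69.6% for Ube2c. For Ube2c 22.8% of exon bases overlap Tnnc2 on the opposite strand, and no source used here says that reads were counted by strand.

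**Figure D2:**
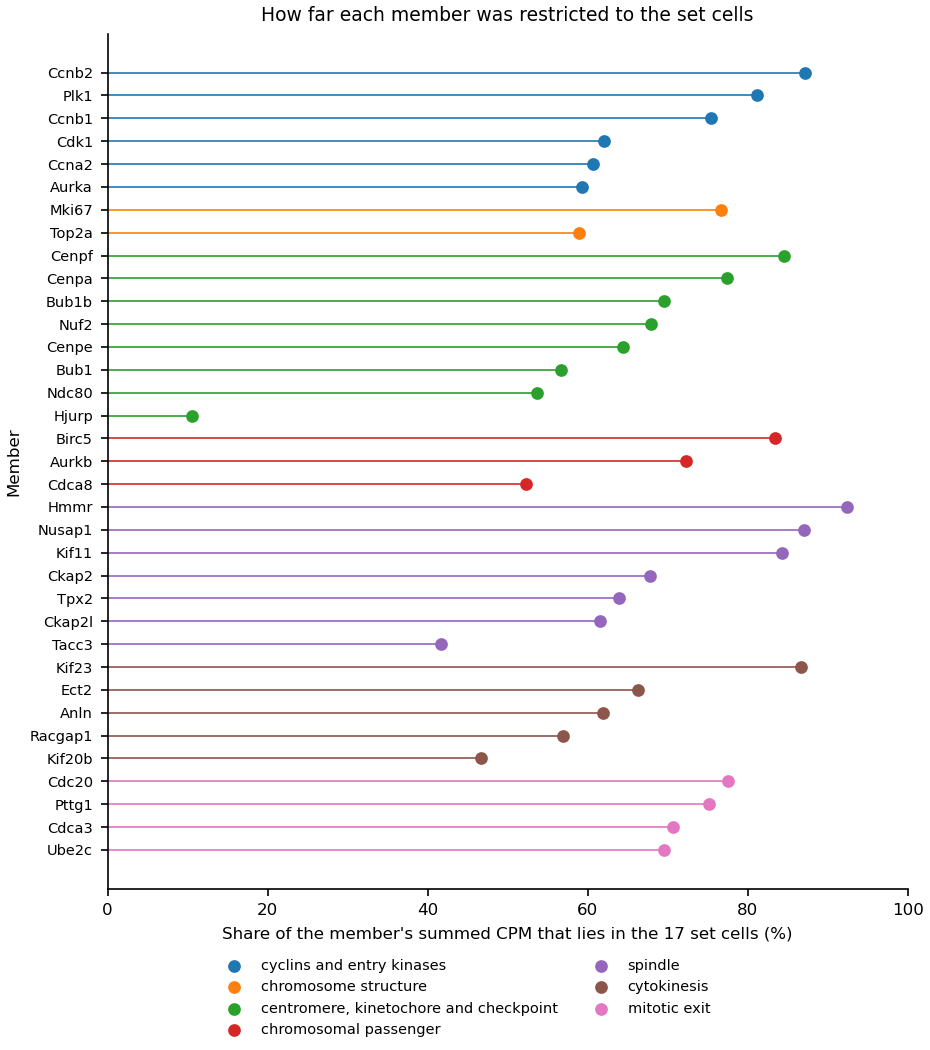
Share of each member's summed CPM that lies in the 17 set cells (x axis, percent), with 1 point per member and colours by role. Hmmr lies highest at 92.4%, Hjurp lowest at 10.6%, and Tacc3 (41.7%) and Kif20b (46.7%) are the only others under 50%.

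The order within the phase was read against a score of 40 S phase genes, none of them a member. For this score the log2(CPM + 1) values of genes such as Pcna, Mcm6 and Nasp were turned into z scores and averaged. Members were placed as early or late by general knowledge of the cell cycle, with earlier results of these data known. The early members were Ccna2, Cdk1, Top2a, Mki67, Kif11, Ndc80, Nuf2 and Hjurp. The late members were Ccnb1, Cdc20, Plk1, Aurka, Cenpa, Cenpe, Cenpf and Hmmr. Over all cells the S phase score had a rho of 0.506 with the early members (0.509 on plate 1 and 0.512 on plate 2) and of 0.243 with the late ones (0.280 and 0.211). The difference was 0.263. Without the set cells the values were 0.468 and 0.171.

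Among the set cells the makeup of the programme differed with the S phase score. Leaving out well B7 of plate 1, 6 cells had S phase scores of 1.06 to 1.57 and 10 had scores of -0.454 to 0.506. The limit between them was drawn after the scores were seen. Late members made up 1.58%, 19.3% and 34.3% (lowest, median, highest) of the early plus late CPM in the 6 cells with high scores. In the 10 cells with low scores they made up 54.9%, 71.7% and 75.7%. The ranges did not overlap. Well B7 fell between them at 47.8%, and its S phase score of 0.851 lay in the gap between the scores of the 6 and the 10 cells. The scores are thus separate only without this cell. Of the cells with high scores 5 were on plate 1 and 1 on plate 2, and of those with low scores 6 and 4, and each plate showed the same order. Gene reads per spike-in read had medians of 218 and 153.98, and depth medians of 297472 and 218709 reads, and the part of either in the difference was not tested.

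**Figure D3:**
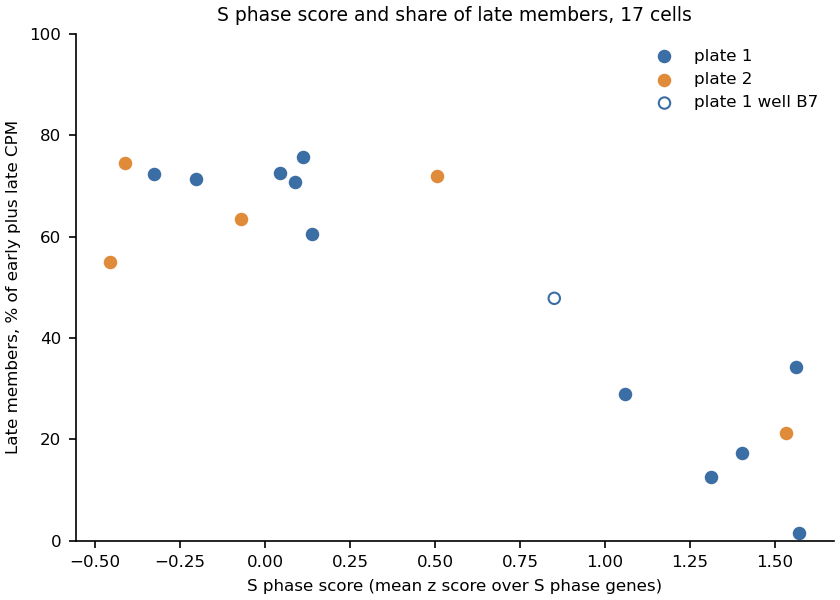
Share of late members in the early plus late CPM (y axis, percent) against the S phase score (x axis) of the 17 set cells, coloured by plate, with well B7 of plate 1 as an open circle. The 6 cells with scores above 1 lie between 1.58% and 34.3%, and the 10 cells with scores up to 0.506 between 54.9% and 75.7%.

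Late members had higher means where the S phase score was low. All 8 had a higher mean in the 10 cells with low scores, with a median ratio of 2.24, as did 1 of 8 early members, Kif11 at a ratio of 1.42. Means and medians went opposite ways for 2 of these, Aurka with medians of 32.8 CPM in the cells with high scores and 19.8 CPM in those with low scores, and Kif11 with 77.6 and 5.59 CPM. The median ratio of the early members was 0.582. Of the 19 members placed in neither list 14 were higher in the cells with low scores, with a median ratio of 2.09, near that of the late members. All members together summed to medians of 5605 CPM in the cells with high scores and 9575 CPM in those with low scores. A higher mean in the cells with low scores was thus not particular to the late list. Cdc20 had 0, 82.8 and 186.1 CPM in the 6 cells with high scores and 150.2, 751 and 1696 CPM in the 10 with low scores, so the ranges overlapped only between 150.2 and 186.1 CPM. Cenpa had 0, 16.96 and 315 CPM against 91.1, 884 and 1257 CPM. Both genes were high together in cells low in S phase genes.

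Pttg1, placed in neither list, had the largest ratio of means of the 35 members, 13.1, before Cdc20 (8.88), Cenpa (8.43), Ckap2 (6.69) and Bub1b (5.30). It had 16.9, 93.8 and 136.6 CPM in the cells with high scores and 36.8, 1001 and 2680 CPM in those with low scores. Cdca3 had medians of 59.9 and 588 CPM, and Ccnb2 of 153.98 and 620 CPM. The checkpoint gene Bub1b was present at 10 CPM in 2 of the 6 cells with high scores and in 8 of the 10 with low scores.

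At the other end stood Top2a, with a ratio of 0.133, followed by Aurkb (0.202), Nusap1 (0.230) and Cdk1 (0.240). Top2a had 267, 868 and 2449 CPM in the 6 cells with high scores and 0, 84.4 and 460 CPM in the 10 with low scores. Cdk1 had 220, 463 and 674 CPM against 0, 9.14 and 533 CPM. It was present at 10 CPM in all 6 and in 4 of the 10. Nusap1 had 30.9, 107.8 and 328 CPM against 0, 2.59 and 150.2 CPM, and Aurkb medians of 115.9 and 9.95 CPM. Nusap1 and Aurkb thus went with the early members, although they were placed in neither list. Mki67 and Ccna2 were present in all 16 cells, with medians of 658 and 590 CPM for Mki67 and 163.2 and 132.7 CPM for Ccna2. Birc5 and Anln differed little by their medians, at 360 and 270 CPM for Birc5 and 286 and 260 CPM for Anln. Their means went the other way, at 310 and 457 CPM for Birc5 and 258 and 349 CPM for Anln.

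**Figure D4:**
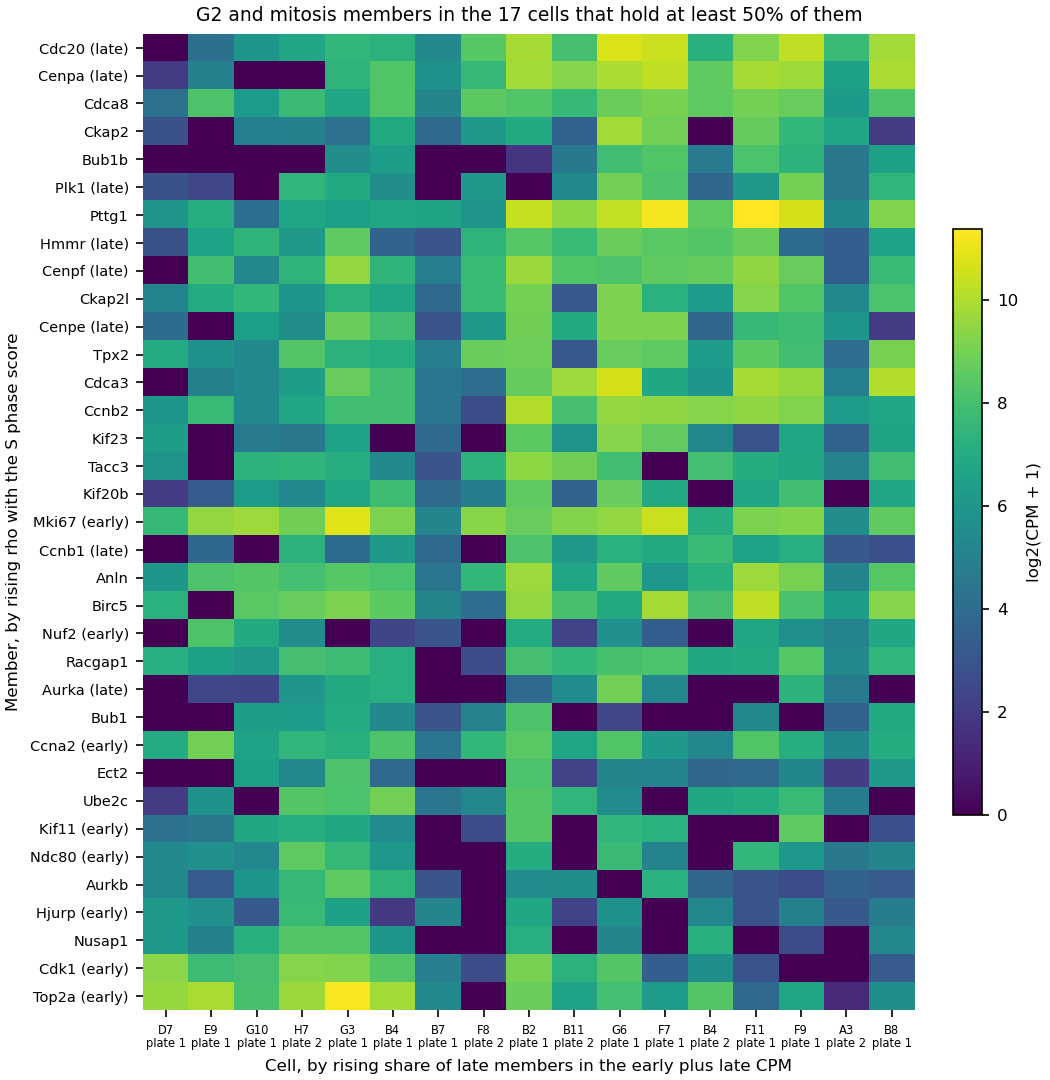
Level of each member, as log2(CPM + 1) in colour, in the 17 set cells. Cells run from the lowest share of late members (left, 1.58%) to the highest (right, 75.7%), and members from the lowest rho with the S phase score (top) to the highest (bottom). Cdc20 and Cenpa at the top brighten to the right, and Cdk1 and Top2a at the bottom darken.

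Outside the set cells most cells still carried a few members. Counting only members above 3 times stray reads, 18 of the other cells held 9 or more and 8 held none, and the rest held 1 to 8. The median was 4 members. The members seen most often there were Hjurp in 64 cells, Top2a in 53, Tacc3 in 40, Anln and Pttg1 in 36 each, Cdca8 in 35 and Mki67 in 33. Those seen least were Bub1b, Nusap1 and Hmmr, in 4 cells each. Stray reads made up an expected 14.1% of the members' reads in these cells.

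Cells outside the set with a high S phase score carried early members in the main. The 10 such cells with a score above 1 had early members summing to 155.5, 334 and 828 CPM and late members to 7.62, 36.8 and 311 CPM. In the others the medians were 64.2 CPM for early and 25.0 CPM for late members. Cdk1 was present at 10 CPM in 8 of the 10 and in 28 of the others (17.4%), and Top2a in 9 of the 10 and in 64 of the others (39.8%). Kif20b was present in 6 and in 26 (16.1%). Plk1, Aurka, Hmmr, Bub1b, Nusap1 and Kif23 were present in none of the 10, and in 2.48% to 4.97% of the others, too few to tell an absence from 10 cells from a like share. None of the 10 reached 3000 CPM of Krt10, and 45 of the others did.

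The fullest cells outside the set differed in which members they held at high levels. These cells were picked out after their values were seen. The cell in well F3 of plate 2 held 15 members, 14 of them above stray reads, with 9 at 100 CPM or more, namely Top2a, Cenpa, Cdc20, Tacc3, Cdca3, Cdca8, Anln, Pttg1 and Racgap1. The cell in well H3 of plate 2 also held 14 above stray reads, with Top2a, Cdk1, Tpx2, Kif20b, Cdca8 and Anln at 100 CPM or more. Its S phase genes summed to 6551 CPM, against 1214 CPM in well F3. Top2a, Cdca8 and Anln were thus at this level in both cells, Cdc20, Cenpa and Pttg1 only in F3 of the pair, and Cdk1 only in H3.

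Cells with Krt10 at 3000 CPM or more, a level that marks cells beginning to differentiate, had lower mean levels of the members. There were 47 such cells, 18 on plate 1 and 29 on plate 2, and in 46 of them Krt10 exceeded 3 times the expected stray reads. At least 25% of the members were present in 9 of the 47 (19.1%, 9.15% to 33.3%) and in 45 of the other cells (31.9%, 24.3% to 40.3%). Above 3 times stray reads it was 6 (12.8%, 4.83% to 25.7%) and 28 (19.9%, 13.6% to 27.4%). Both pairs of intervals overlapped. Set cells numbered 2 among the 47 (4.26%, 0.520% to 14.5%) and 15 among the others (10.6%, 6.08% to 16.9%), and these intervals overlapped too. At least 1 member above stray reads was held by 45 of the 47 (95.7%), the same share as among the others (95.7%). Median depth was 377328 and 367794 reads.

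All 35 members had a lower mean in the cells high in Krt10. The mean was at least 2-fold lower on both plates for 11 of them, where 6.99% of all 9811 genes were, and at least 2-fold higher for none, where 2.23% were. The 11 were Kif11, Cdk1, Aurkb, Ndc80, Nuf2, Bub1, Tpx2, Ccna2, Plk1, Mki67 and Anln. The median fold of the members was 0.253, beside 0.926 for all genes. Of 38 S phase genes with a mean of 5 CPM 23 were lower in this way, and of 65 other genes of G2 and mitosis 30. On plate 1 alone 32 members were at least 2-fold lower, and on plate 2 alone 8 of those with a mean of 5 CPM there. Set cells, which held 66.9% of the members' summed CPM, were unevenly spread. Among the cells high in Krt10 they numbered 0 on plate 1 and 2 on plate 2, and among the others 12 and 3. The part of this spread in the gap between the plates was not tested. Leaving out the cell in well B4 of plate 2, the shallowest of all, raised the count from 11 to 20, and leaving out well A3 of plate 2 as well raised it to 22. Over all cells Krt10 had a rho of -0.0347 with the member score, 0.0494 on plate 1 and -0.107 on plate 2. The rho was -0.126 after subtraction of stray reads, and -0.192 with the members' summed CPM. The ranks thus showed at most a weak relation. Means rest on few cells, and medians were low in both groups, for example 5.33 and 6.86 CPM for Mki67 and 6.77 and 10.9 CPM for Top2a.

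**Figure D5:**
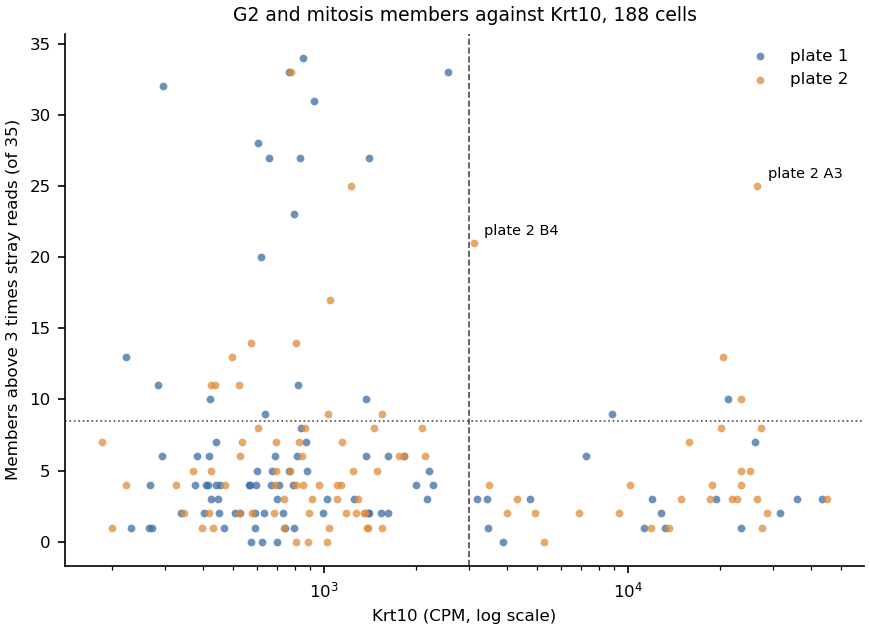
Members above 3 times the expected stray reads (y axis, of 35) against Krt10 (x axis, CPM on a log scale) in all cells, coloured by plate. The dashed line marks 3000 CPM and the dotted line 25% of the members. Right of the dashed line 6 cells lie above the dotted line, and wells A3 and B4 of plate 2 lie highest with 25 and 21 members.

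Of the 2 set cells with high Krt10, 1 had both programmes well above stray reads. The cell in well A3 of plate 2 had Krt10 at 26639 CPM, where 275 CPM of stray reads were expected, and 25 members above stray reads. Its depth was 625809 reads and its genes with a read numbered 8554. Its members were at low levels, summing to 1245 CPM, with Cdc20 at 211, Ckap2 at 107.1, Cenpa at 91.1 and Birc5 at 83.1 CPM. Late members made up 74.5% of its early plus late CPM, and its S phase score was -0.411. Gene reads per spike-in read were 290 in this cell, the highest of the set cells. Whether this well held more than 1 cell was not tested.

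The other set cell, in well B4 of plate 2, had 79868 reads, and 40.9% of them were expected to be stray. Its Krt10 was 3105 CPM with 2262 CPM expected as stray, so most of the keratin read was within the background. Of its 28 members 21 exceeded stray reads, with a sum of 4833 CPM. After subtraction of stray reads it no longer held 3000 CPM of Krt10, which left 46 cells high in Krt10.

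The other 7 cells with high Krt10 and at least 25% of the members had smaller sets. The cell in well G9 of plate 1 had Tacc3 at 272, Aurka at 182.5 and Hjurp at 124.6 CPM. Wells A9 of plate 1 and B8, B10, C12, D12 and F5 of plate 2 held 9 to 14 members. Ckap2l reached 175.2 CPM in A9, Pttg1 149.8 CPM in B8 and 197 CPM in B10, Tpx2 139.1 CPM in C12, Top2a 116.8 CPM in D12 and Cdca3 117.3 CPM in F5. In B10 only 2 of 10 members exceeded 3 times stray reads. In C12 it was 13 of 14, with Krt10 at 20456 CPM. No member was at 100 CPM or more in all of these cells.

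Many genes outside the list were also higher in set cells than in other cells. Of 75 further genes of G2 and mitosis 65 had a mean of 5 CPM, and 47 of these were at least 2-fold higher in set cells on both plates, with none lower and a median fold of 7.95, beside 0.965 for all genes. The more abundant among them had smaller folds. Tubb4b, a tubulin, had means of 1129 CPM in set cells and 523 CPM in others, but a fold of 2.91 on plate 1 and of 0.924 on plate 2. Smc4, a condensin subunit, had means of 223 and 83.9 CPM, with folds of 3.07 and 1.46 on the plates. Smc2, its partner, had means of 218 and 50.4 CPM, with folds of 4.59 and 2.26. Of 38 S phase genes 11 were 2-fold higher, with a median fold of 2.12. None of the 12 basal keratinocyte genes was 2-fold higher or lower, and 2 of 12 early differentiation genes were lower. By the same rule 2.98% of all 9811 genes were higher and 8.16% lower. Nothing is read from the counts in these lists of 12 genes.

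The genes whose level across the cells was most like the members' mean score were ranked by Spearman's rho on the plate where it was nearer to 0, among 9319 genes that reached 10 CPM in 10% of cells or more. A rho of at least 0.3 on both plates was reached by 41 genes, and none was at -0.3 or below on both. Highest was Pclaf, which binds the replication clamp, with 0.563 on plate 1 and 0.493 on plate 2. Stmn1, which encodes the microtubule regulator stathmin, had 0.525 and 0.490, and Diaph3, a formin, 0.468 and 0.648. Knl1, a kinetochore scaffold, Uhrf1, Aspm, Rrm2, Ncapg, Pbk, Cdkn3, Asf1b, Tk1, Dlgap5, Pmf1 and E2f8 completed the 15. Rrm2, Tk1 and Uhrf1 serve DNA synthesis or its marks, and Ncapg, Aspm and Dlgap5 condensation or the spindle. Low values belonged to Acox3, Prrg1, Clic3 and Fgf13, with rho between -0.228 and -0.429 on either plate. Acox3 had a mean of 0.188 CPM in set cells and 19.2 CPM in the others.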

How the data were processed

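Whole-number read counts per gene were deposited by the authors without normalization, for all cells as 1 group. The build GRCm38 and the tools STAR 2.5.2b, HTSeq 0.6.0 and cutadapt 1.13 are named in the submitters' processing notes. Order, parameters, strand setting and annotation were not given in the sources used here. No column was left out (0 unused). Identifiers were matched to symbols for 49326 of 49585 gene rows, and 92 spike-in rows stayed out of CPM. Python 3.11.15 with scipy 1.17.1 was used, and the scripts were tested on simulated data. The members and lists were chosen with earlier results of these data known. The named genes are all members, the 15 genes with the highest and 5 with the lowest rho with the member score, of which 1 is not reported here, and up to 8 abundant genes of a list. Scores are mean z scores of log2(CPM + 1) over genes that reached 10 CPM in 5% of cells or more. Stray reads were estimated from genes with at least 300 reads and 70% of their reads in 1 well. Reads carry no molecular identifiers. Intervals are on numbers of cells of 1 group with no named animal, so they cover counting error only. Alternatives were other thresholds, subtraction of stray reads, thinning, single plates and left-out cells. Gene positions are from GENCODE on GRCm38.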

Additional observations from a re-analysis of the deposited data

How the results depend on the processing

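The share of cells with at least 25% of the members, 28.7%, depended most on what counted as present. It was 94.7% with 1 read, 11.2% at 30 CPM, 63.8% for 10% of the members and 9.04% for 50% of them. It was 44.7% after thinning to 75000 reads, where 1 read exceeds 10 CPM, and 19.1% after subtraction of stray reads. Chosen after seeing the data, the limit of 3 times stray reads gave 18.1% and subtraction at doubled rates 17.02%. The count of cells with partial sets became 10 with 1 read, 63 for 10% of the members, 64 on plate 1 and 65 on plate 2. The share among cells high in Krt10, 19.1%, became 93.6% with 1 read, 4.26% at 30 CPM or for 50% of the members, 53.2% for 10% of the members and 39.1% after thinning. The 11 members at least 2-fold lower with high Krt10 became 25 after subtraction, 24 at doubled rates (chosen after seeing the data), 32 on plate 1 alone, 20 with Krt10 at 10000 CPM and 5 with a mean of at least 20 CPM, where fewer genes enter. Left out after seeing the data, well B4 of plate 2 gave 20 and wells A3 and B4 together 22. The cause of the other changes was not tested. The mean rho over pairs moved by less than 0.0883 under subtraction, thinning, single plates and the other alternatives run for it. That limit is the SD over pairs and not a spread of the mean, which was 0.343 on plate 1 and 0.211 on plate 2. The difference of rho between early and late members moved by no more than 0.0596 under subtraction, thinning and its other alternatives. This limit is the gap between the plates, so single plates cannot be judged by it. Without the set cells the mean rho was 0.140, and 0.0934 with stray reads also subtracted. Reads of genes that overlap on the opposite strand, as for Ube2c, Ccna2 and Tacc3, cannot be told apart. No paired analysis was possible because all cells form 1 group.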
